A study of Mus musculus with 24 samples.

Results

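The 10 genes described here are read as markers of the macrophages of the mouse adrenal gland: Cd163, Mrc1, C1qa, C1qb, C1qc, Csf1r, Cd68, Lyz2, Mpeg1 and Cd14. They were taken by symbol from the deposited table of 21957 genes, each from its brightest probe set, and each of the 10 has 1 probe set. All 10 were among the 14411 genes bright enough to be tested, that is over a log2 signal of 5 in at least 4 arrays. Cd163 was the dimmest of them and stood over 5 in 21 of the 24 arrays, while the other members did so in 24 of 24. By known role they fall into 2 resident scavenger markers (Cd163 and Mrc1), 3 chains of complement C1q and 5 general markers of the macrophage lineage.

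RNA of whole adrenal glands was measured on Affymetrix arrays in mice of 7 months on a mixed sv129-C57Bl/6 background, in 6 groups of 4 arrays. Knockout (KO) mice carried Prkar1a fl/fl, Cyp11b2-Cre cre/+ and mTmG/mTmG, so that the regulatory subunit gene Prkar1a was deleted where the promoter of Cyp11b2, the aldosterone synthase of the outer cortex, is active; macrophages are not a cell type that this promoter is known to mark. There were KO and control (WT) females, KO and WT intact males, and KO and WT males gonadectomised (GDX) for the last 2 months. WT females carried 1 floxed allele and Cre with mTmG/mTmG, and WT intact males carried both floxed alleles without Cre. The WT GDX males were mixed: array 1 came from a mouse with neither floxed allele nor Cre, arrays 2 and 3 from mice with Cre and no floxed allele (array 2 with mTmG/+ in place of mTmG/mTmG), and array 4 from a mouse with Cre and 1 floxed allele. WT and KO thus differed in more than the deletion in the intact males and among the GDX controls. The WT females carried Cre and 1 floxed allele, so that 1 Prkar1a allele could be deleted in them too. A difference between WT groups, or between KO effects, therefore cannot be told apart from one between control genotypes. The labels call the arrays of a group biological replicates.

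Macrophages are phagocytes that live in almost every tissue and clear dead cells, debris and old red cells, and in the adrenal they lie between the cords of steroid-making cells along the sinusoids. Those that live long in a tissue typically carry scavenger and lectin receptors such as CD163, the receptor for haptoglobin-bound haemoglobin, and the mannose receptor MRC1, which takes up glycoproteins. Macrophages are also a main source of C1q, the recognition unit of the classical complement pathway, which is built from the A, B and C chains encoded by C1qa, C1qb and C1qc. In RNA of a whole gland, fewer cells of a type and less RNA per cell cannot be told apart, and this holds for every level below.

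The targeted gene was lower in KO than in WT in each sex and gonadal state. Prkar1a differed by -1.43 ± 0.23 (log2 change ± standard error from limma, adjusted p = 5.83e-05) in females and by -1.19 ± 0.23 in those without testes (GDX; limma, adjusted p = 0.00477). The difference between KO and WT intact males, -0.92 ± 0.23, did not pass (limma, adjusted p = 0.16), but did without KO intact male array 3. KO intact male arrays spread widely (6.89 to 8.47, SD 0.69), and all lay below the WT intact male arrays (8.72 to 8.91). The groups separated in this way for 4.45% of all genes. The median signal of an array was 5.20 to 5.29, arrays of 1 group correlated over all probe sets with Pearson's r of 0.989 to 0.995, and the mean of 9 steroidogenic cortex genes was between 11.70 and 12.11 in every array, as a check that the tissue was adrenal cortex. Adjusted p-values below are those of limma with Benjamini-Hochberg adjustment over all 14411 genes, a gene is called when it is under 0.05, and all levels are log2 RMA signals on which a difference of 1 is a doubling of the signal. The p-values rest on the spread between arrays within groups, pooled for each gene over all 6 groups and moderated by limma. They do not follow a spread that differs between groups.

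The promoters are shown for Cd163 and Mrc1, the scavenger markers that were called in females, and for C1qb and C1qc, the pair of members whose levels varied together most tightly (r = 0.94 within groups). Windows of 250 bases ending at the RefSeq start site, on GRCm38.p6, were at hand for 7 of 10 members and are not analysed here for C1qa, Csf1r and Cd14. C1qb, C1qc and C1qa are 3 neighbours on chromosome 4. Capitals mark matches to GAGGAA, the purine-rich core to which the myeloid factor PU.1 binds, on either strand (TTCCTC when read from the other strand).
Cd163, chr6:124304401-124304650, plus strand: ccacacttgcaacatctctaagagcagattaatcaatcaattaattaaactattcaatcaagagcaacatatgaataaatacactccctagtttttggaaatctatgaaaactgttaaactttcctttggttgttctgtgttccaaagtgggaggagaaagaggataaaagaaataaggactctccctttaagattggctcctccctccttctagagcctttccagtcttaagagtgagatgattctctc
Mrc1, chr2:14229164-14229413, plus strand: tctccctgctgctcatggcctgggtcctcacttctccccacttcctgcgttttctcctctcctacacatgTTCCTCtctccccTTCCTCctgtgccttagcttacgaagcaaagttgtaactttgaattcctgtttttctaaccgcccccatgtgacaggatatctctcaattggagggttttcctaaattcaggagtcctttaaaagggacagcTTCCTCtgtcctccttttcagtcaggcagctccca
C1qb, chr4:136886201-136886450, minus strand: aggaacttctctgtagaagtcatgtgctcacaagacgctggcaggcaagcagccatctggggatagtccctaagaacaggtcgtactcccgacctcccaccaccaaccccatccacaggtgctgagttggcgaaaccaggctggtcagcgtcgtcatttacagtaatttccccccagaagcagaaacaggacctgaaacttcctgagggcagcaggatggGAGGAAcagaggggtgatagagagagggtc
C1qc, chr4:136892915-136893164, minus strand: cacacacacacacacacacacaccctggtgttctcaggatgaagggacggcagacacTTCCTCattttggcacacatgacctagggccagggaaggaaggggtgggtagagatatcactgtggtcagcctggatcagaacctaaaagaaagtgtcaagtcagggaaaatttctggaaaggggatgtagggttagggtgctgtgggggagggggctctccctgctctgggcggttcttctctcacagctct

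The letters matched 3 times in the window of Mrc1, and 1 time each in those of C1qb, C1qc and Cd68. The windows of Cd163, Lyz2 and Mpeg1 held no match. That is 4 of 7 members, against 23.3% of 32851 mouse windows of the same length, and 3.54% of all windows held 2 or more matches, as that of Mrc1 did. A match says only that these letters are present, and Cd163 and Mrc1 differ in this respect.

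Cd163 was the member with the largest difference between KO and WT females. In WT females its 4 arrays read 4.99, 5.15, 5.16 and 5.05, close to the limit of 5 below which signals were treated as too dim, and in KO females 6.61, 5.34, 6.95 and 6.25. Every KO array stood above every WT array, although KO array 2 did so narrowly, and the spread was wider in KO (SD 0.69) than in WT (SD 0.08). Cd163 rose by 1.20 ± 0.28 in KO females, a 2.30-fold higher signal (limma, adjusted p = 0.00216, 95% interval 0.63 to 1.78). Because the WT level lies near the limit of detection, the size of this rise is uncertain.

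In the males Cd163 stayed near that limit in nearly every array. Intact males gave 5.30, 5.25, 5.16 and 4.97 in WT and 5.63, 4.96, 5.21 and 5.22 in KO. GDX males gave 5.77, 5.20, 5.35 and 5.07 in WT and 5.25, 6.52, 5.34 and 5.18 in KO. The groups overlapped in both cases, and 1 KO GDX array (array 2) stood far above the others. The KO minus WT difference was 0.09 ± 0.28 in intact males (limma, adjusted p = 0.976, 95% interval -0.49 to 0.66) and 0.22 ± 0.28 in GDX males (limma, adjusted p = 0.723, 95% interval -0.35 to 0.80), and without KO GDX array 2 the latter was -0.09.

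Mrc1, the mannose receptor, behaved like Cd163 in females at a level far above the limit. WT females read 7.86, 8.02, 7.98 and 8.07 and KO females 8.74, 8.56, 9.47 and 8.68. The 2 groups did not overlap, and KO array 3 was the highest of all 24 arrays. Mrc1 rose by 0.88 ± 0.23, or 1.84-fold (limma, adjusted p = 0.00588, 95% interval 0.40 to 1.36).

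In intact males Mrc1 read 7.36, 8.08, 7.82 and 7.85 in WT and 8.39, 7.87, 8.35 and 7.98 in KO. KO arrays 1 and 3 lay above all WT arrays and the rest overlapped, with a difference of 0.37 ± 0.23 (limma, adjusted p = 0.783, 95% interval -0.11 to 0.85). In GDX males it read 8.13, 8.04, 8.24 and 7.71 in WT and 7.81, 9.01, 8.20 and 7.67 in KO, so that again KO array 2 alone stood above the WT arrays. The difference there was 0.14 ± 0.23 (limma, adjusted p = 0.792, 95% interval -0.34 to 0.63).

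The complement C1q chains were higher in KO than in WT females, and 1 of the 3 was called. C1qa read 6.71, 7.14, 7.12 and 6.93 in WT and 7.59, 7.35, 8.24 and 7.50 in KO females. The groups did not overlap, and C1qa rose by 0.70 ± 0.19, or 1.62-fold (limma, adjusted p = 0.00723, 95% interval 0.30 to 1.09). C1qb read 8.76, 9.10, 9.25 and 9.12 in WT and 9.61, 9.38, 10.36 and 9.37 in KO females. C1qb also showed no overlap, but its difference of 0.62 ± 0.24 narrowly missed the threshold (limma, adjusted p = 0.0532). C1qc read 6.85, 7.09, 7.22 and 7.14 in WT and 7.60, 7.30, 8.30 and 7.30 in KO females, again without overlap, and differed by 0.55 ± 0.21 (limma, adjusted p = 0.0516). That C1qa passed while its partner chains did not is not a difference between the chains, which was not tested, and the 3 intervals (0.12 to 1.13 for C1qb, 0.11 to 0.99 for C1qc) overlap almost wholly.

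In intact males the chains did not share a sign. C1qa read 6.90, 7.60, 7.13 and 7.03 in WT and 7.21, 6.83, 6.98 and 6.80 in KO, with a difference of -0.21 ± 0.19 (limma, adjusted p = 0.874). C1qb differed by 0.12 ± 0.24 and C1qc by 0.11 ± 0.21 (limma, adjusted p = 0.958 and 0.951), and all 3 chains overlapped between the groups. In GDX males the differences were -0.10 ± 0.19 for C1qa, -0.26 ± 0.24 for C1qb and -0.26 ± 0.21 for C1qc (limma, adjusted p = 0.823, 0.606 and 0.549). C1qa read 7.17, 7.48, 7.20 and 7.24 in WT GDX and 6.85, 7.71, 7.18 and 6.94 in KO GDX males, where array 2 was the highest of its group for every chain.

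The 5 general markers were all higher in the mean of KO females than of WT females, and none was called. Lyz2, the lysozyme of macrophages and neutrophils, read 8.93, 9.09, 9.32 and 9.47 in WT and 9.84, 9.90, 10.66 and 9.54 in KO females, a difference of 0.78 ± 0.31 (limma, adjusted p = 0.0578). Cd68, a glycoprotein of the lysosome, read 7.04, 7.33, 7.33 and 7.50 in WT and 7.70, 7.61, 8.31 and 7.97 in KO females, a difference of 0.60 ± 0.25 (limma, adjusted p = 0.0721). Neither gene overlapped between the 2 groups.

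The other general markers did overlap. Cd14, the co-receptor for bacterial lipopolysaccharide, read 6.09, 6.46, 6.65 and 6.55 in WT and 7.65, 6.49, 7.05 and 6.42 in KO females and differed by 0.46 ± 0.22 (limma, adjusted p = 0.107). Csf1r, the receptor through which CSF1 and interleukin 34 keep macrophages alive, read 7.22, 7.47, 7.50 and 7.63 in WT and 7.72, 7.53, 8.76 and 7.47 in KO females and differed by 0.42 ± 0.22 (limma, adjusted p = 0.165). Without KO female array 3 the difference for Csf1r was 0.12. Mpeg1, a pore-forming protein that macrophages use against engulfed bacteria, read 7.84, 8.14, 8.08 and 8.14 in WT and 8.13, 8.13, 9.17 and 8.001 in KO females. For Mpeg1 only KO array 3 stood above the WT arrays, the difference was 0.31 ± 0.28 (limma, adjusted p = 0.427), and without that array it was 0.04.

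Over the whole set, 3 of 10 members were called in females (Cd163, Mrc1 and C1qa), all higher in KO, where 32.6% of all genes tested were called and 13.9% were called higher. For 7 of 10 members every KO array lay above every WT array, against 14.0% of all genes. All 10 changes were above 0 (46.6% of all genes), 8 of 10 had an unadjusted p under 0.05 (42.4% of all genes), and the median change was 0.61 against -0.02 for all genes. By role, 2 of 2 scavenger markers, 1 of 3 C1q chains and 0 of 5 general markers were called, with median changes of 1.04, 0.62 and 0.46. The difference between the roles was not tested, and the 95% intervals of Cd163 and Lyz2 overlap widely. The count was 5 without KO female array 2 and 7 without KO female array 4, and it was also 5 with a stricter filter on dim genes, with arrays centred on their median, with an intensity trend in the prior or with the female arrays fitted alone.

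**Figure D1:**
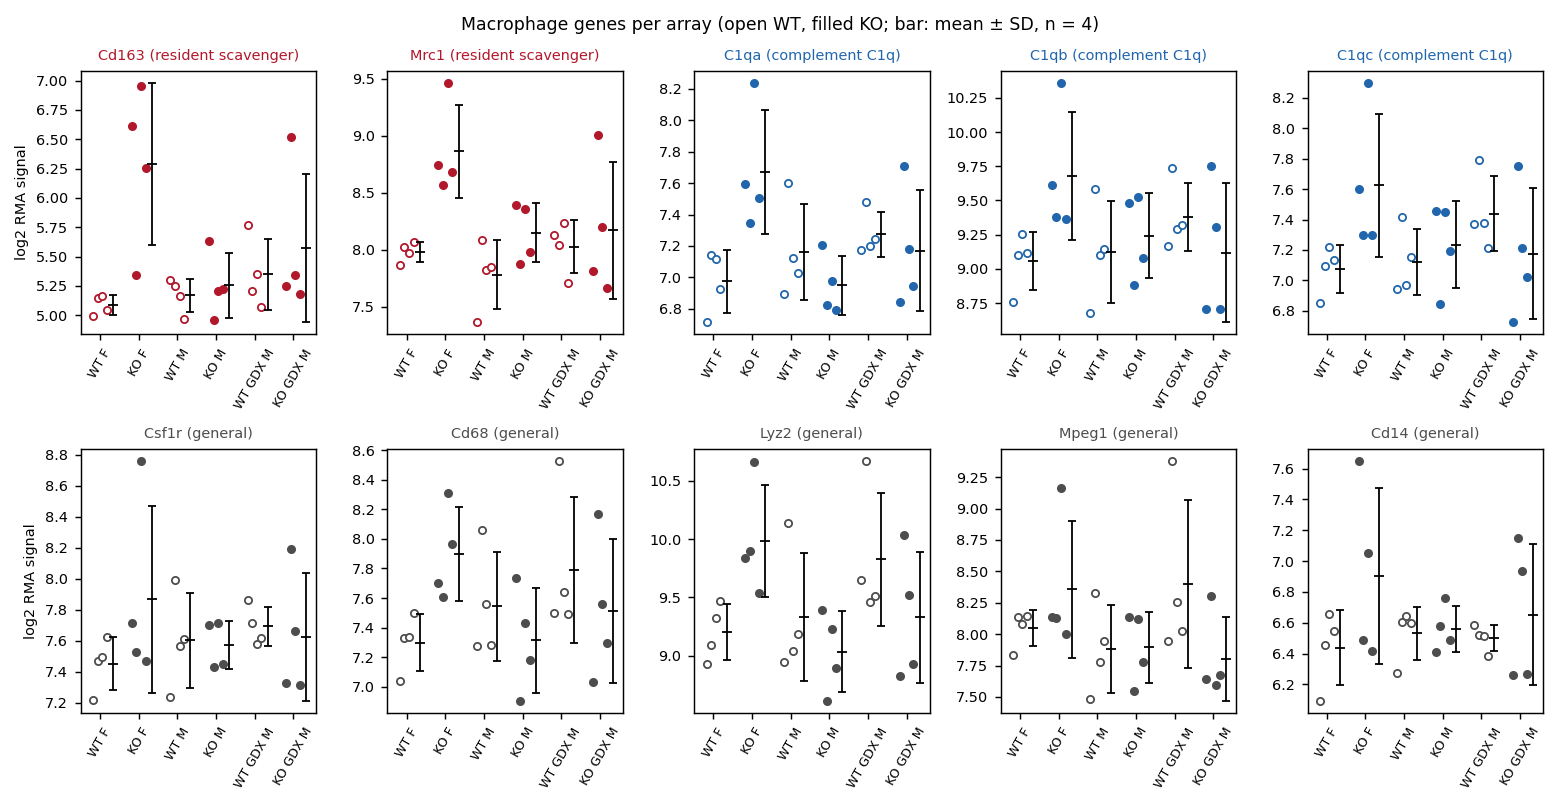
Log2 RMA signal of the 10 macrophage genes in each of the 24 arrays, by group (open points WT, filled points KO; bars are mean ± SD, n = 4; each panel has its own signal axis). In females the KO arrays of Cd163, Mrc1, the 3 C1q chains, Cd68 and Lyz2 all lie above the WT arrays, with array 3 (up to 10.66 for Lyz2) often far above the rest, while in males the groups overlap for every gene.

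In intact males 0 of 10 members were called by limma, against 0.111% of all genes, and read against that share a count of 0 says little about the members. Counted without adjustment, 0 of 10 had a p under 0.05 (7.49% of all genes), and none separated the groups (4.45% of all genes did). The differences ran from -0.29 (Lyz2) to 0.37 (Mrc1) with a median of 0.02 (all genes -0.01), and the adjusted p-values from 0.783 to 0.997. Lyz2 read 8.94, 10.14, 9.04 and 9.19 in WT and 9.39, 8.61, 9.23 and 8.90 in KO intact males, with WT array 2 the highest, and its 95% interval of -0.94 to 0.35 includes sizeable differences in either direction.

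In GDX males 0 of 10 members were called by limma, against 4.23% of all genes, and none separated the groups (9.62% of all genes). Here 3 of 10 differences were above 0 (46.8% of all genes), the median was -0.18 (all genes -0.01) and 1 member, Mpeg1, had an unadjusted p under 0.05 (19.7% of all genes). Mpeg1 read 7.94, 9.38, 8.25 and 8.02 in WT GDX and 7.64, 8.31, 7.59 and 7.68 in KO GDX males. Its difference was -0.59 ± 0.28 (limma, adjusted p = 0.235), and it leaned on WT array 2, without which it was -0.27. Lyz2, with 9.65, 10.67, 9.46 and 9.52 in WT GDX and 8.83, 10.04, 9.52 and 8.93 in KO GDX males, differed by -0.50 ± 0.31 (limma, adjusted p = 0.404). Cd68 differed by -0.28 ± 0.25, Csf1r by -0.07 ± 0.22 and Cd14 by 0.15 ± 0.22, with adjusted p-values from limma of 0.597, 0.909 and 0.755. The 2 scavenger markers and Cd14 were thus the members with a positive difference after gonadectomy, and the C1q chains lay on the other side of 0, in each case within the error.

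**Figure D2:**
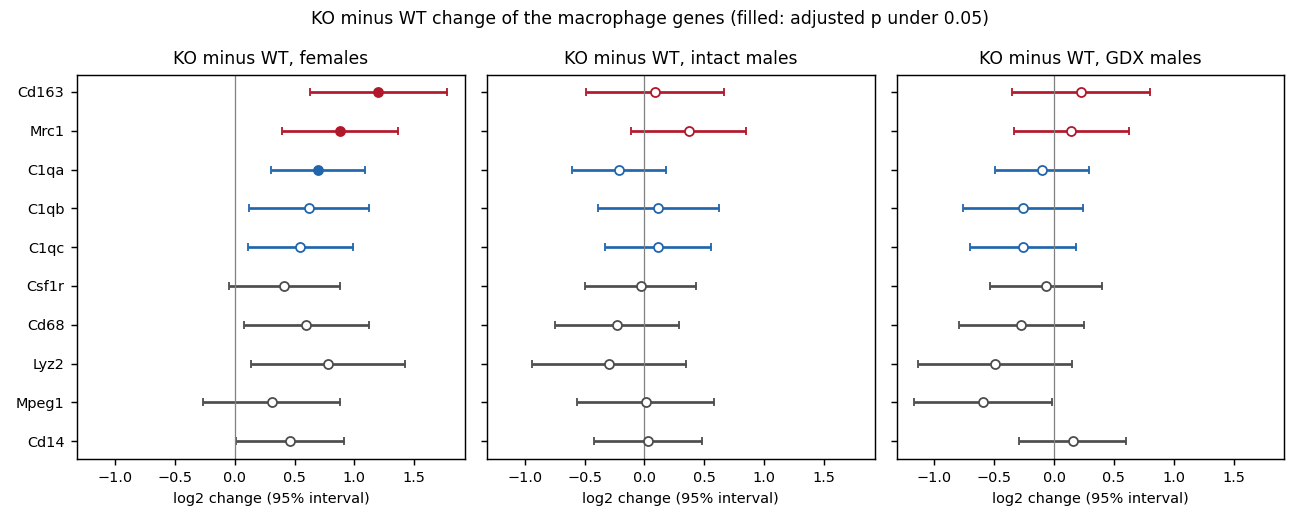
KO minus WT log2 change of each macrophage gene with its 95% interval from limma (18 residual degrees of freedom), in females, intact males and GDX males; filled points have an adjusted p under 0.05. In females the intervals of 8 of 10 members lie clear of 0, and those of Csf1r and Mpeg1 include it. Only Cd163 (0.63 to 1.78), Mrc1 (0.40 to 1.36) and C1qa (0.30 to 1.09) passed after adjustment. The intervals in males include 0 except for Mpeg1 in GDX males (-1.17 to -0.02), which did not pass after adjustment.

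Whether the KO effect itself differed between females and males was tested as an interaction. The WT groups had unlike genotypes, so the interaction cannot separate sex from control genotype. Against intact males, 1 of 10 members was called, C1qa, while 16.0% of all genes were. The KO minus WT change of C1qa was 0.91 ± 0.27 higher in females than in intact males (limma, adjusted p = 0.0252), and the call was lost without WT female array 1 or WT intact male array 2 (adjusted p up to 0.0544). Without KO female array 2 or KO intact male array 1, Cd163 passed as well. The same difference was 1.12 ± 0.39 for Cd163 (limma, adjusted p = 0.0561), 1.07 ± 0.44 for Lyz2 (limma, adjusted p = 0.0983) and 0.83 ± 0.35 for Cd68 (limma, adjusted p = 0.116). For Mrc1, called in females and not in intact males, it was 0.51 ± 0.33 (limma, adjusted p = 0.311), so the effects of the 2 sexes were not shown to differ.

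Against GDX males the interaction was positive for 10 of 10 members (48.5% of all genes), with a median of 0.84 and 8 of 10 unadjusted p-values under 0.05 (18.8% of all genes). None of the 10 was called by limma, where 3.31% of all genes were, and the smallest adjusted p was 0.101, for C1qa (0.80 ± 0.27). The largest difference was that of Lyz2, at 1.28 ± 0.44 (limma, adjusted p = 0.11). The count rested on 1 library: without KO GDX array 2, which read high for the members, 5 of 10 were called, and without KO female array 2, 1 was. Between GDX and intact males 0 of 10 were called by limma and 0 had an unadjusted p under 0.05, against 0.0278% and 9.44% of all genes. These 3 interactions share arrays and are not independent of each other.

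KO females were also set against KO males directly. Of the 10 members, 4 were called against KO intact males, where 41.0% of all genes were called. Cd163 was higher by 1.03 ± 0.28 (limma, adjusted p = 0.00472), Lyz2 by 0.95 ± 0.31 (limma, adjusted p = 0.0172), C1qa by 0.72 ± 0.19 (limma, adjusted p = 0.00402) and Mrc1 by 0.71 ± 0.23 (limma, adjusted p = 0.0171). The share called is thus no larger than that of all genes, but all 4 lay in 1 direction, in which 17.8% of all genes were called. The calls of Mrc1 and Lyz2 were lost without KO female array 3 or KO intact male array 2, leaving 2 called.

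Against KO GDX males Mrc1 alone was called in KO females, at 0.69 ± 0.23 (limma, adjusted p = 0.0417), where 18.4% of all genes were called. Leaving out KO GDX array 2 raised the count to 5 of 10, leaving out KO female array 2 raised it to 3, and leaving out any other array of these groups lowered it to 0. In WT arrays 0 of 10 members were called by limma in females against intact males (7.75% of all genes), 0 against GDX males (0.902%) and 0 in GDX against intact males (4.50%), and 0 of 10 had an unadjusted p under 0.05 in any of the 3, against 21.9%, 11.5% and 17.8% of all genes. In KO males 0 of 10 were called by limma after gonadectomy (15.4% of all genes), and 0 had an unadjusted p under 0.05 (29.9% of all genes). The largest differences in WT males were those of Mpeg1 (0.52 ± 0.28) and Lyz2 (0.50 ± 0.31), higher in GDX than in intact males (limma, adjusted p = 0.344 and 0.433), and both had 1 very high array, WT GDX array 2.

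Ordered by group mean, KO females had the highest mean of the 6 groups for 9 of 10 members, the exception being Mpeg1, which was highest in WT GDX males (8.40 ± 0.67, SD, n = 4) ahead of KO females (8.36 ± 0.54). The mean of Mrc1 (± SD) was 8.86 ± 0.41 in KO females, 8.17 ± 0.60 in KO GDX males, 8.15 ± 0.26 in KO intact males, 8.03 ± 0.23 in WT GDX males, 7.98 ± 0.09 in WT females and 7.78 ± 0.30 in WT intact males. For Cd163 the order was KO females (6.29 ± 0.69), KO GDX males (5.57 ± 0.63), WT GDX males (5.35 ± 0.30), KO intact males (5.25 ± 0.28), WT intact males (5.17 ± 0.14) and WT females (5.09 ± 0.08). Neighbours in each order overlapped in their arrays for every member. The mean of C1qa was 7.67 ± 0.39 in KO females, 7.27 ± 0.14 in WT GDX males, 7.17 ± 0.38 in KO GDX males, 7.16 ± 0.31 in WT intact males, 6.97 ± 0.20 in WT females and 6.95 ± 0.19 in KO intact males.

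The 10 genes also varied together between mice of the same group. After each group's mean was taken off, Pearson's r over the 24 arrays was 0.90 to 0.94 among the 3 C1q chains and had a median of 0.85 between the chains and the general markers (0.53 to 0.91). It was 0.75 between Cd163 and Mrc1, and between the scavenger and general markers it ranged from 0.39 (Cd163 with Mpeg1) to 0.89 (Mrc1 with Csf1r). Cd14 followed the others least, with r of 0.31 to Mpeg1 and 0.35 to Cd68. These values describe 24 arrays that share 1 normalization.

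Single arrays show the pattern. KO female array 3 had the highest value of its group for every member but Cd14, which was highest in array 1 (7.65). WT GDX array 2, the one control with mTmG/+, was high for Mpeg1 (9.38), Lyz2 (10.67) and Cd68 (8.53) but within its group for Mrc1 (8.04) and Cd163 (5.20). KO GDX array 2 was the highest of its group for all 10 members, the scavenger markers included (Mrc1 9.01, Cd163 6.52). In WT intact males array 2 was the highest for the C1q chains, Lyz2 (10.14) and Mrc1 (8.08), but not for Cd163 (5.25) or Cd14 (6.60).

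**Figure D3:**
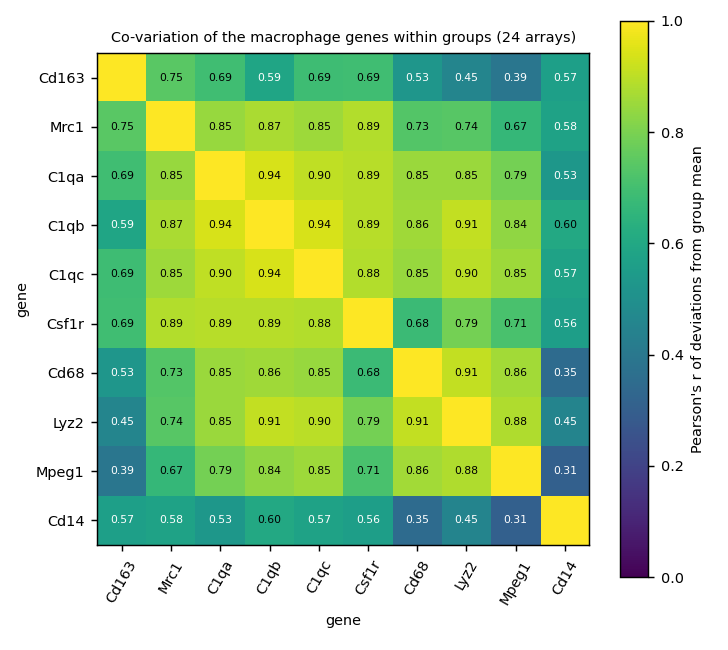
Pearson's r between the macrophage genes over 24 arrays after the mean of each group was taken off; rows and columns are genes, and the colour scale runs from 0 to 1. The block of C1q chains is the tightest (0.90 to 0.94), Cd163 follows Mpeg1 (0.39) and Lyz2 (0.45) loosely, and Cd14 has the lowest values (0.31 with Mpeg1).

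The genes most like these in pattern over the 24 arrays, out of 14401 tested genes outside the set, were sought for Cd163 and for the mean of the C1q chains. Cd163 was followed most closely by Clec4a1 (r = 0.92), a lectin-like receptor of myeloid cells, Ms4a4a (r = 0.90), Cxcl13 (r = 0.89), a chemokine that attracts B cells, Clca3a1 (r = 0.87) and Fermt3 (r = 0.87), the integrin activator of blood cells. The C1q mean was followed by Pla2g7 (r = 0.95), the secreted enzyme that cleaves platelet-activating factor, Tlr13 (r = 0.94), Igsf6 (r = 0.93), Adgre1 (r = 0.92), which encodes the macrophage antigen F4/80, and Fcgr4 (r = 0.92). All 10 of these genes were called higher in KO females, from 0.49 ± 0.15 for Fermt3 (limma, adjusted p = 0.0169) to 2.68 ± 0.72 for Cxcl13 (limma, adjusted p = 0.00687). Clca3a1 was under 5 in every WT and every KO intact male array, and passed the filter on dim genes only through KO female and KO GDX arrays. Clec4a1 read 4.70 to 5.04 in WT females, so the sizes of both rises are uncertain. The calls of Fermt3, Tlr13, Igsf6, Adgre1 and Fcgr4 were lost without KO female array 3. The genes were picked for likeness over the same arrays, so these calls add nothing independent.

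Other genes of the resident scavenger kind were read from a list of 17, of which 12 were tested. In KO females 7 were called higher and 2 lower, with a median of 0.82 (all genes -0.02), where 13.9% of all genes were called higher. Without Vsig4, which passed the filter on dim genes only through the KO females, 6 of 11 were called higher and 2 lower, with a median of 0.59 (set apart after the data were seen). In intact and in GDX males 0 of 12 were called by limma, where 0.111% and 4.23% of all genes were, so these counts say little. F13a1, the clotting factor chain made by resident macrophages, read 6.39 to 6.78 in WT and 8.71 to 9.36 in KO females and rose by 2.34 ± 0.29 (limma, adjusted p = 4.19e-06). Vsig4, the complement receptor of resident macrophages, rose by 2.75 ± 0.29 (limma, adjusted p = 5.6e-07), from 3.12 to 3.84 in WT, below the limit of 5, to 5.64 to 6.85 in KO females, so that its size is uncertain and it could pass the filter on dim genes only through the KO females. The scavenger receptor Msr1 rose by 1.27 ± 0.19, the hyaluronan receptor Lyve1 by 1.11 ± 0.24 and the sialic acid lectin Siglec1 by 1.06 ± 0.25 (limma, adjusted p = 2.53e-05, 0.00146 and 0.00291).

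Within that list 2 genes fell, which are named because of their direction after their values were seen: the lectin gene Mgl2, by -0.67 ± 0.18, and Gas6, by -0.61 ± 0.17, a bridge to dying cells that other cells also make (limma, adjusted p = 0.00668 and 0.00982), where Mgl2 was under 5 in all KO female arrays. The mean of the list per array was 7.22 to 7.43 in KO females against 6.44 to 6.62 in WT females, and 7.34 to 7.59 against 6.72 to 6.92 without Vsig4. KO female array 2, which was low for Cd163 (5.34), thus stood with the other KO arrays in the list as a whole. As interactions, 4 of the 12 were called with a larger KO effect in females than in intact males and 2 with a smaller one, where 16.0% of all genes were called. Against GDX males 2 of 12 were called with a larger effect in females (3.31% of all genes were called). Without Vsig4 these counts were 3, 2 and 1 of 11.

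Of 21 other general macrophage genes tested, 2 were called higher in KO females and 0 lower, a smaller share than the 13.9% of all genes called higher, with a median of 0.30. They were Adgre1, at 0.76 ± 0.29 (limma, adjusted p = 0.0482, lost without any 1 of the WT female arrays or without KO female array 3), and the transcription factor Maf, at 0.46 ± 0.13 (limma, adjusted p = 0.00795). The median change of the list was -0.01 in intact males and -0.19 in GDX males, with 0 of 21 called by limma in each (0.111% and 4.23% of all genes were called). Of 10 other complement genes tested, 0 were called higher and 2 lower in KO females (32.6% of all genes were called): C2, the protease of the classical pathway, by -0.59 ± 0.13 (limma, adjusted p = 0.00141) and the C1 inhibitor Serping1 by -0.53 ± 0.14 (limma, adjusted p = 0.00515). The other 8 did not pass, the median of the list was -0.13, and its difference from the C1q chains was not tested. C2 also fell in GDX males by -0.48 ± 0.13 (limma, adjusted p = 0.0389), a call that was lost without any 1 of 6 of the 8 arrays compared.

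**Figure D4:**
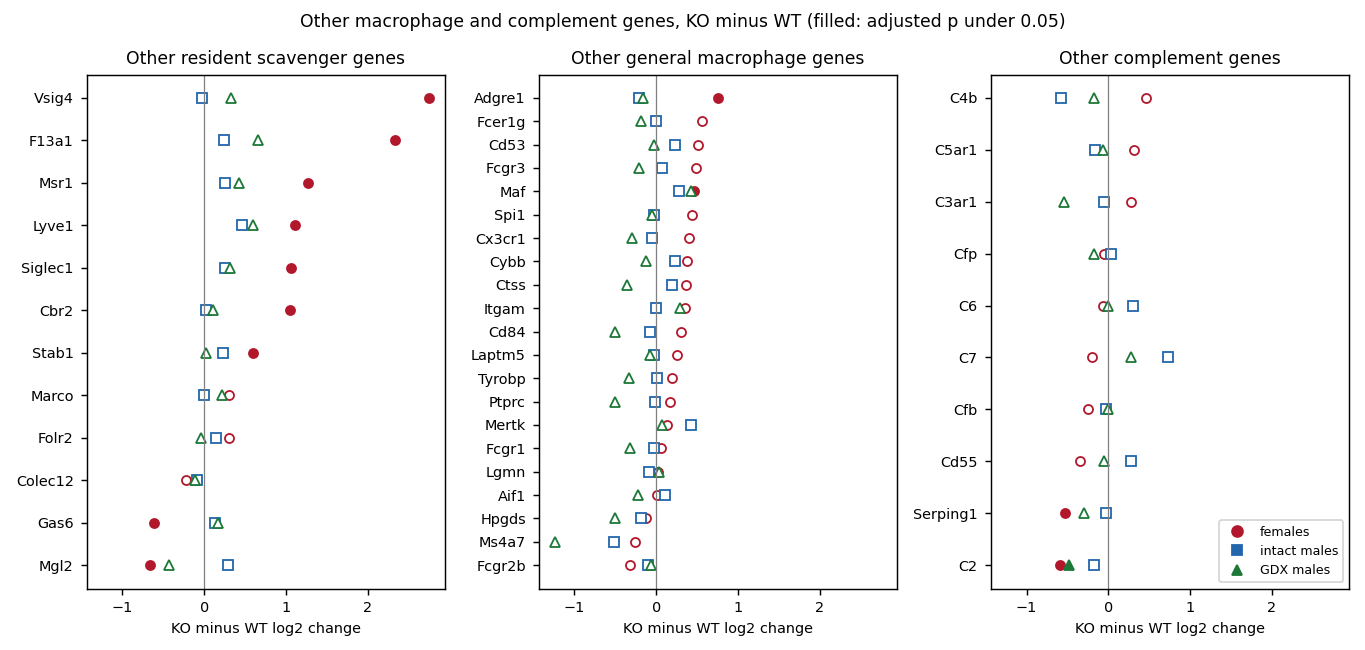
KO minus WT log2 change of the genes of 3 lists outside the set, in females (circles), intact males (squares) and GDX males (triangles); filled symbols have an adjusted p under 0.05. In females F13a1 rose by 2.34, and Vsig4 is drawn at 2.75 from a WT level under the limit of 5 so that its place in the order is uncertain. Most general macrophage genes lie between 0 and 1 in females, but not in the males, and C2 and Serping1 are lower in females.

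Of 9 genes of lipid-handling and lysosome-rich macrophages 2 were called higher in KO females, 2 lower and 5 not at all, where 32.6% of all genes were called. Trem2, a lipid-sensing receptor, rose by 1.17 ± 0.20 (limma, adjusted p = 0.00011), from 6.60 to 6.75 in WT to 7.72 to 8.14 in KO. Trem2 rose likewise in GDX males, by 1.21 ± 0.20 (limma, adjusted p = 0.00182), where none of the 10 members was called, and this call was lost with the GDX arrays fitted alone (limma, adjusted p = 0.0647), but not when that fit also had the replicate number as a block (limma, adjusted p = 0.0398). In intact males it differed by 0.27 ± 0.20 (limma, adjusted p = 0.83). The protease gene Ctsd rose by 0.33 ± 0.10 in females (limma, adjusted p = 0.0134), while Lpl, the lipase that adipocytes also make in quantity, fell with a change of -1.55 ± 0.44 and the tetraspanin gene Cd9 with one of -0.39 ± 0.13 (limma, adjusted p = 0.0104 and 0.0203). The call of Cd9 was lost without any 1 of 3 of the 8 arrays.

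Among the growth factors and receptors that serve macrophages, 3 of 6 tested were called higher and 1 lower in KO females, where 32.6% of all genes were called. The gene called lower was Cx3cl1, at -0.64 ± 0.13 (limma, adjusted p = 0.000648), and it kept its call in 8 of 8 fits with 1 array left out. Csf2ra was called higher, at 0.27 ± 0.08 (limma, adjusted p = 0.0169), and kept its call in 6 of 8 such fits. Csf2rb, the shared chain of the GM-CSF receptor, rose by 2.14 ± 0.23 (limma, adjusted p = 8.11e-07), from 4.70 to 5.52 in WT to 7.19 to 7.57 in KO. Il34, a ligand of CSF1R, rose by 0.38 ± 0.13 (limma, adjusted p = 0.0257), and its call was lost without any 1 of 5 of the 8 arrays compared. The other ligand, Csf1, differed by -0.15 ± 0.11 (limma, adjusted p = 0.325), but was called lower without KO female array 3 and with array weights. Of 9 partners of CD14 and Toll-like receptor genes, 2 were called higher, among them Tlr7 at 0.91 ± 0.24 (limma, adjusted p = 0.00569), and 2 lower, Tlr6 at -0.76 ± 0.27 and Tlr1 at -0.63 ± 0.20 (limma, adjusted p = 0.0365 and 0.0198). The call of Tlr6 was lost in 4 and that of Tlr1 in 2 of 8 fits with 1 array left out, with adjusted p-values of up to 0.146 and 0.079. Of 9 genes for the handling of haemoglobin and haem, the cargo of CD163, 0 were called by limma in females, where 32.6% of all genes were. In intact males 0 were called, against 0.111% of all genes, so that count says little. In GDX males 1 was called, against 4.23% of all genes (Lrp1 at 0.24 ± 0.07, limma, adjusted p = 0.0461, which did not pass with the replicate number as a block, adjusted p = 0.0639).

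Markers of other cell types were read beside these results. Of 8 neutrophil markers 1 was bright enough to be tested (Elane) and S100a8 was at most 3.92 in any array. Of 9 lymphocyte markers in the table, 5 (Cd3d, Cd8a, Cd79a, Ms4a1 and Klrb1c) were under 5 in all 24 arrays, Cd3e was over 5 in 5 arrays, Cd79b in 2 and Cd3g in 1, and Nkg7 was over 5 in 24 of 24. The 2 that were tested, Cd3e and Nkg7, were not called in females (limma, adjusted p = 0.781 and 0.414). Of 4 monocyte markers tested 1 was called in KO females (32.6% of all genes were called), Chil3, by 3.79 ± 0.48 (limma, adjusted p = 5.82e-06), from 3.96 to 5.83 in WT to 7.93 to 9.46 in KO. Chil3 was over 5 in 10 of 24 arrays, and it met the filter on dim genes only because of KO female and KO GDX arrays. The only call of this list thus came from a gene that entered the test through its KO levels. The other monocyte markers tested differed in the opposite direction and were not called. Ccr2 differed by -0.48 ± 0.19, Ly6c2 by -0.34 ± 0.20 and Plac8 by -0.08 ± 0.23 (limma, adjusted p = 0.0505, 0.213 and 0.819). Chil3 also rose in GDX males by 2.33 ± 0.48 (limma, adjusted p = 0.00865), from a level under 5, a call that was lost with the GDX arrays fitted alone, also with the replicate number as a block (limma, adjusted p = 0.0599). Of 2 mast cell genes tested, Cpa3, the mast cell carboxypeptidase, fell in KO females with a change of -1.54 ± 0.28 (limma, adjusted p = 0.000292) and in GDX males with one of -1.24 ± 0.28 (limma, adjusted p = 0.0161, up to 0.0919 under the alternatives and lost without any 1 of 4 of the 8 arrays), and Kit was not called in females (limma, adjusted p = 0.492). Of 5 dendritic cell genes tested 1 was called in females (32.6% of all genes were called), Cd209a, at -0.26 ± 0.10 (limma, adjusted p = 0.0414). Its call was lost without any 1 of 7 of the 8 arrays compared. The part of these cells in the changes of the members was not tested. Lyz1, the near-identical copy of Lyz2, lay between 4.38 and 5.44 in the 24 arrays and differed by 0.10 ± 0.21 in females, and whether its transcripts reach the Lyz2 probe set was not tested.

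Other parts of the gland also differed between KO and WT females. Of 8 capsule and mesenchyme genes 6 were called lower (list mean per array 7.26 to 7.44 in KO, 8.15 to 8.31 in WT), where 32.6% of all genes were called in either direction. So were 6 of 8 genes of medullary chromaffin cells (8.81 to 9.40 in KO, 9.49 to 9.92 in WT) and 5 of 9 adipocyte genes (7.60 to 8.36 in KO, 8.69 to 9.51 in WT). The uncalled genes of the capsule list (Col1a1 at -0.50, Col1a2 at -0.73) and of the chromaffin list (Th at -0.48, Pnmt at -0.20) were lower too. Of 9 steroidogenic cortex genes 5 rose, where 13.9% of all genes were called higher, and the list mean was 12.001 to 12.11 in KO and 11.73 to 11.83 in WT. In females the cortex list thus differed in the same direction as the macrophage genes, and the capsule, chromaffin and adipocyte lists in the opposite one. The part of these tissues in the rise of the macrophage genes was not tested.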

How the data were processed

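Whole adrenal RNA (500 ng of total RNA per the labels) was hybridised to 24 arrays, 4 in each of 6 groups taken from the labels. The authors deposited log2 signals made with RMA, per the submitters' processing notes; no version of it is given in the sources used here. RMA gives all arrays 1 distribution of signals, so a change shared by most genes would not be seen, and the number of arrays limits the precision. Of 32202 probe sets, 22943 carry 1 symbol, 1731 several and 7528 none; the last kinds were left out. For each of 21957 genes the probe set with the highest mean was kept, and 14411 genes over log2 5 in at least 4 arrays were tested with limma 3.58.1 in R 4.3.3, as 12 contrasts of 6 group means (18 residual and 3.41 prior degrees of freedom), called at an adjusted p of 0.05 over all genes. The script was tested on simulated data.

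The members, the 18 other lists (190 genes, 172 matched, 145 tested) and the alternatives were chosen with earlier results of these data known. Named genes are the members, Prkar1a, up to 5 called genes per list and KO comparison with the largest changes, and the 5 genes most like Cd163 and the C1q mean; Csf1, Kit, Mgl2, Gas6 and the marker levels of other cell types were added after their values were seen. The main tests used no pairing and no block, in GDX males as elsewhere. Replicate numbers of KO and WT GDX arrays deviated together (r 0.12 to 0.24 in all 4 pairs, across genes). Those numbers were therefore read as pairs, but only in the alternative fits with the replicate number as a block. The r was -0.08 to 0.01 in females and -0.17 to 0.02 in intact males, whose numbers were not read as pairs. No label pairs the arrays. Same-numbered WT GDX and WT intact male arrays gave a similar r of 0.09 to 0.24 (3 of 4 over 0.1), and KO GDX and KO intact male arrays -0.24 to 0.16. The pairing of the GDX arrays is thus uncertain. Promoters are from RefSeq (GRCm38.p6); which build the array's gene annotation rests on was not given in the sources used here. Alternatives were the filter on dim genes, normalization, the probe set rule, the prior, array weights, the groups fitted, the replicate block and each array left out.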

Additional observations from a re-analysis of the deposited data

Results flagged for a closer look

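Of 60 sets of 4 arrays (10 genes in 6 groups), 6 held an array far from the other 3, and chance gives this for about 5% of such sets. In KO GDX males array 2 stood apart for Cd163 (6.52, the others at most 5.34) and for Mpeg1 (8.31, the others at most 7.68). In WT GDX males array 2 stood apart for Cd68 (8.53, the others at most 7.64) and Lyz2 (10.67, the others at most 9.65), and this is the array whose mouse carried mTmG/+. KO female array 3 stood apart for Mpeg1 (9.17, the others at most 8.13), and WT intact male array 1 stood low for Cd14 (6.28, the others at least 6.60). The KO effect on C1qa differed between females and intact males, by 0.91 in the test of the difference itself.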

How the results depend on the processing

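Over the 120 changes of the members, 1068 of 1090 values recomputed under settings that kept all arrays stayed on the same side of the threshold with the same sign, 3 lost the call, 17 gained it and 2 changed sign with neither value passing. Leaving out 1 array at a time gave 1200 values, of which 12 lost and 21 gained the call and 61 changed sign, again with neither value passing. Cd163, Mrc1 and C1qa kept their calls in females under all 9 settings and without each of the 8 arrays, with adjusted p-values of at most 0.0105, 0.0270 and 0.0333 when 1 array was left out.

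The count of members called in KO against WT females was 3. It was 5 with log2 over 6 in at least 4 arrays, with arrays centred on their median, with an intensity trend in the prior, with the groups compared fitted alone and with the replicate number as a block, and 3 to 7 when 1 array was left out. The count for KO females against KO GDX males was 1; it was 0 without a filter on dim genes, after another round of quantile normalization and with the groups compared fitted alone, 2 with arrays centred on their median, and 0 to 5 when 1 array was left out. The count for the KO effect in females against intact males was 1; it was 2 with the stricter filter, with quantile normalization and with the groups compared fitted alone, and 0 to 2 when 1 array was left out. Leaving out 1 array gave 2 to 5 for KO females against KO intact males (4 with all arrays) and 0 to 5 for the KO effect in females against GDX males (0 with all arrays). The causes were not tested. The replicate block left 0 members called in GDX males, where the numbers were taken as pairs, also with the GDX arrays fitted alone (added after seeing the data).

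No called change of a member reversed. With array weights the uncalled change of Mpeg1 in intact males was -0.0259 in place of 0.01. Uncalled changes whose sign depended on 1 array ran as follows when arrays were left out. In GDX males C1qa ran from -0.28 to 0.0042, Cd14 from -0.0105 to 0.28, Cd163 from -0.0914 to 0.36, Csf1r from -0.26 to 0.0343 and Mrc1 from -0.13 to 0.31. In intact males C1qb ran from -0.0325 to 0.27, Cd14 from -0.0543 to 0.0808, Cd163 from -0.0400 to 0.18, Csf1r from -0.15 to 0.10 and Mpeg1 from -0.12 to 0.16. Csf1r ran from -0.0024 to 0.43 in KO females against KO intact males and from -0.0544 to 0.43 against KO GDX males, and Cd14 from -0.000298 to 0.41 in the latter.

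Beside the members, 36 genes were recomputed that were called in KO against WT females, Prkar1a among them. Of these 23 kept the call under every setting and every left-out array in which they were tested, and of 6 in GDX males 1 did (Prkar1a). None changed sign. With the GDX arrays fitted alone and the replicate number as a block, the calls of Lrp1 (adjusted p = 0.253), C2 (adjusted p = 0.105), Cpa3 (adjusted p = 0.0648) and Chil3 (adjusted p = 0.0599) were lost in GDX males. Cd163 in WT lies near the limit of 5, mostly just above it. Vsig4 and Chil3 in most WT arrays, Clca3a1 in all WT arrays and Clec4a1 in WT females lie at or under that limit. The sizes of the changes of all these genes are thus uncertain.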
